A study of Mus musculus with 48 samples.

Results

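miR-223 and miR-142a are microRNAs (miRNAs) of white blood cells, and both arms of each hairpin are described here: mmu-miR-223-3p, mmu-miR-223-5p, mmu-miR-142a-3p and mmu-miR-142a-5p, written below without the prefix for mouse. They were chosen by name from a table of 1978 mature mouse miRNAs, of which they are 4, as a read of leukocytes in ganglia after systemic inflammation. Both kinds of ganglion came from Balb/c mice of both sexes aged 2.5 months, injected intraperitoneally with 0.2 mL of saline that held lipopolysaccharide (LPS) of E. coli at 2.5 mg/kg or held nothing more. LPS is a cell wall component of bacteria that sets off an inflammatory response. Trigeminal ganglia (TG), which hold the sensory neurons of the face, and superior cervical ganglia (SCG), which hold sympathetic neurons of the head and neck, were taken at 4 h, 24 h or 7 d. This gave 12 groups (TG and SCG, LPS and saline, 3 times) of 4 small RNA libraries each, 48 in all. The libraries of a group came from different mice, 2 female and 2 male, and replicates 1 and 2 are the female ones throughout. Every group used here, saline included, had an injection. Both ganglia of a kind were taken from each mouse, and nothing in the labels says which TG and SCG libraries share a mouse.

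A miRNA is processed from a hairpin as a pair of arms, and usually 1 arm is loaded into an Argonaute protein and pairs with messenger RNAs through its seed, bases 2 to 8. miR-223 is made mainly by neutrophils, monocytes and macrophages, where it restrains granulocyte production and activation. miR-142a is made by nearly all blood cells of the haematopoietic lineage, lymphocytes and mast cells included, and is close to absent from neurons. In a ganglion both are therefore read as RNA of blood, of resident macrophages or of leukocytes that entered the tissue, and a bulk library does not separate these sources.

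The mature sequences are shown because the seeds show that the 4 members are 4 separate regulators. They are written 5′ to 3′ from RefSeq (build GRCm38.p6), with the seed in capitals.
miR-223-3p: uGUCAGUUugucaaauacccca
miR-223-5p: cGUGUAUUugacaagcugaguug
miR-142a-3p: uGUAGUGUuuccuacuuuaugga
miR-142a-5p: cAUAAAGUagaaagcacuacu
No seed was shared with another member, and none was shared with any other of the 1679 miRNAs of the table that matched a RefSeq sequence. The whole hairpins follow, with both mature arms in capitals.
Mir223: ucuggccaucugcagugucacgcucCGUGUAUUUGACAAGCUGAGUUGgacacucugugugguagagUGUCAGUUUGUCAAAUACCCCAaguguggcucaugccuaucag
Mir142: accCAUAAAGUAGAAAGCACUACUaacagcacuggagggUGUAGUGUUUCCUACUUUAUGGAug
In GRCm38.p6 the Mir223 hairpin of 110 bases lies on chrX:96242817-96242926, plus strand, inside an exon of the noncoding gene F630028O10Rik. The Mir142 hairpin of 64 bases lies on chr11:87756864-87756927, plus strand, within the noncoding gene Mir142hg but in none of its annotated exons. A miRNA on the other strand, miR-142b, overlaps Mir142, and it had 0 counts in the 48 libraries.

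Library totals ran from 1774047 to 5592766 counts, and levels are given as CPM, counts scaled to a common library size by the trimmed mean of M values (TMM) over all 48 libraries. The sensory neuron miRNAs miR-96-5p, miR-182-5p and miR-183-5p summed to 57037 to 88281 CPM in TG libraries and to 221 to 21076 CPM in SCG libraries, and the neuron list (miR-124-3p, miR-9, miR-128-3p, miR-138-5p and miR-129-5p) was present in both ganglia. In SCG 7 d LPS replicate 2 the neuronal miR-124-3p was at 3.58 CPM and miR-9-5p at 230.2 CPM, against medians of 142 and 7875 CPM in the other 3 libraries of its group. There miR-138-5p and miR-129-5p were also low, at 5.86 and 30.9 CPM against 646 and 2746 CPM. By contrast miR-128-3p of the same list was at 35652 CPM against 1905 CPM, and the list summed to 35936 CPM. The same library had 35395 CPM of muscle miRNAs and 11197 CPM of epithelial miRNAs, so its label as SCG tissue goes against these markers, miR-128-3p aside. SCG results that it enters are therefore also given without it. SCG 4 h saline replicate 1 held 94360 CPM of muscle miRNAs and 12840.5 CPM of epithelial ones, in a group whose neuron list summed to 13402 to 17195 CPM. In TG at 7 d the neuron list summed to 31559 to 33998 CPM after LPS and to 33179 to 60856 CPM after saline, where replicates 1, 2 and 4 were the high ones.

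The members were low to middling in abundance, and miR-223 sat close to the counting limit. miR-223-3p had a median of 5.98 CPM in TG and 8.55 CPM in SCG, from 10 to 42 reads and from 8 to 100 reads per library. miR-223-5p had medians of 14.3 CPM in TG and 18.5 CPM in SCG. Among the 577 miRNAs tested in both ganglia together, these 2 arms ranked 411 and 334 by mean level in TG and 375 and 294 in SCG, or 374 and 296 without SCG 7 d LPS replicate 2. miR-142a-3p had medians of 57.4 CPM in TG and 72.7 CPM in SCG, and miR-142a-5p 161 CPM in TG and 191 CPM in SCG, with ranks of 228 and 157 in TG. In SCG their ranks were 145 and 121 with SCG 7 d LPS replicate 2 and 216 and 143 without it, while the SCG medians without it were 72.4 and 189.6 CPM. A count of 8 reads, the lowest of any member, has an exact 95% Poisson interval of 3.45 to 15.8 reads, which covers counting error only. For miR-142a-5p the lowest count was 299 reads, with an interval of 266 to 335.

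In these ganglia the 5p arm was the higher arm of both hairpins, although miR-223-3p is the arm usually followed. miR-223-3p was below miR-223-5p in 47 of 48 libraries, and miR-142a-3p was below miR-142a-5p in 48 of 48. Over the 168 hairpins with both arms tested, the 5p arm was the higher one in 93 (55.4%). The log2 ratio of miR-223-3p to miR-223-5p averaged -1.18 ± 0.50 in TG and -1.35 ± 0.61 in SCG (SD, n = 24 libraries each), and that of miR-142a-3p to miR-142a-5p averaged -1.50 ± 0.24 in TG and -1.47 ± 0.31 in SCG. In SCG without SCG 7 d LPS replicate 2 these ratios were -1.37 ± 0.61 for miR-223 and -1.51 ± 0.25 for miR-142a (n = 23). Ligation-based kits capture miRNA ends unequally, so a ratio of 2 arms is a ratio of reads.

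After LPS for 24 h, SCG libraries held 2.43 times as much miR-223-3p, 2.49 times as much miR-223-5p, 2.18 times as much miR-142a-3p and 1.75 times as much miR-142a-5p as after saline, while the TG changes of the same time lay between -0.12 and 0.54 on the log2 scale. At 7 d in SCG both arms of miR-142a were above saline in every LPS library, by far the most in replicate 2. In the fit over all 24 libraries of each ganglion, 0 of the 4 members passed an adjusted p of 0.05 in any of the 6 comparisons of LPS with saline. Leaving out SCG 7 d LPS replicate 2 took both miR-142a-3p and miR-223-5p past it in SCG at 24 h, against 6 of 514 miRNAs (1.17%). All adjusted p-values are from edgeR's quasi-likelihood test with Benjamini-Hochberg adjustment over every miRNA tested, unless another tool is named. The tested change of a member is a change in bulk RNA: more cells and more RNA per cell cannot be told apart.

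**Figure D1:**
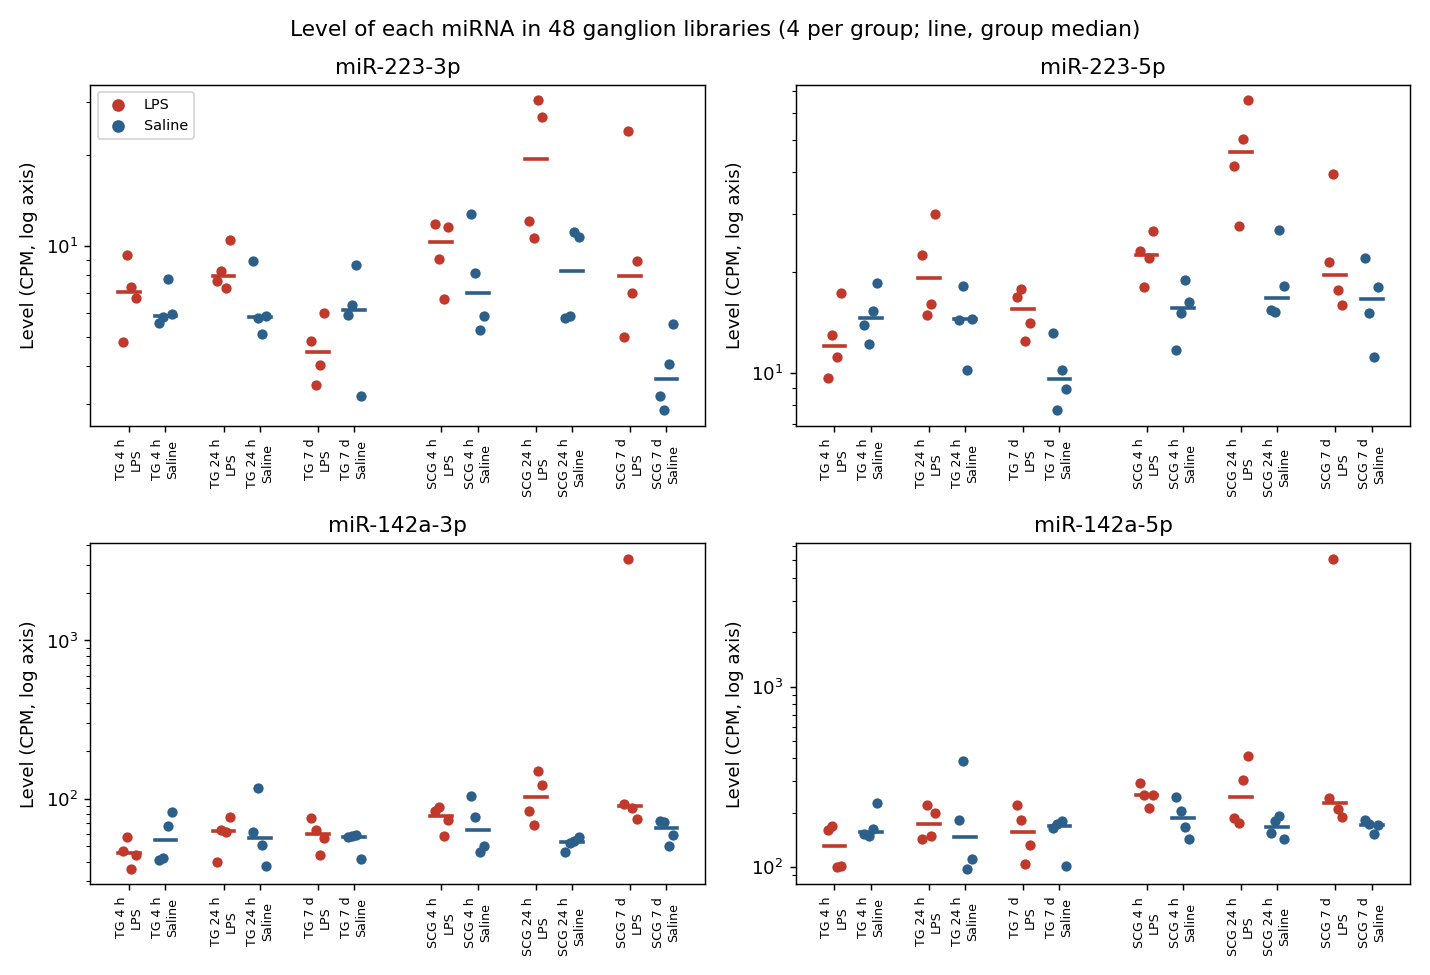
Level of each member in CPM (log axis) in the 48 libraries, by ganglion, time and treatment, with LPS in red, saline in blue and a line at the group median (4 libraries per group). The SCG 24 h LPS points of miR-223-5p and miR-142a-3p lie above all SCG saline points of that time, as they do for 15 of 506 miRNAs (2.96%). SCG 7 d LPS replicate 2 lies alone at 3289.7 CPM of miR-142a-3p and 5116 CPM of miR-142a-5p.

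In SCG at 24 h miR-223-5p stood at 41.6, 27.5, 50.3 and 65.5 CPM in the LPS libraries and at 15.5, 15.2, 26.9 and 18.2 CPM in the saline ones. All 4 LPS libraries were above all 4 saline libraries, narrowly so for LPS replicate 2 against saline replicate 3. The log2 change was 1.32 (SE 0.32, 95% interval 0.64 to 1.99), with an adjusted p of 0.0783, and its p ranked 4 among 506 miRNAs.

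miR-223-3p, the arm best known from neutrophils, stood at 12.1, 10.6, 30.3 and 26.7 CPM in the SCG 24 h LPS libraries and at 5.79, 5.86, 11.2 and 10.7 CPM in the saline ones. The male libraries were the higher ones in both treatments, and 3 of 4 LPS libraries were above every saline library. The log2 change was 1.28 (SE 0.48), with an adjusted p of 0.635.

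miR-142a-3p, the arm by which miR-142 is usually followed, stood at 83.2, 68.0, 149 and 121 CPM in the SCG 24 h LPS libraries and at 45.7, 52.1, 53.7 and 57.3 CPM in the saline ones. All 4 LPS libraries were above all saline libraries, and the males were again the highest. The log2 change was 1.12 with an SE of 0.83 and an adjusted p of 0.997, an SE that rests on the shared spread with SCG 7 d LPS replicate 2. miR-142a-5p stood at 186, 176, 305 and 413 CPM after LPS and at 154, 180.2, 192 and 142 CPM after saline. Here the female LPS libraries lay within the saline range and the males above it, and the log2 change was 0.81 (SE 0.74, adjusted p 0.997).

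Of the 4 members, 0 passed the test in SCG at 24 h with all libraries, against 2 of 506 miRNAs tested (0.395%). miR-223-5p and miR-223-3p had unadjusted p-values of 0.000619 and 0.0143, where 24 of the 506 miRNAs had one under 0.05. The 2 that passed at the adjusted p, miR-21a-5p and miR-155-5p, are induced by Toll-like receptor signalling in macrophages. miR-155-5p averaged 126 ± 37.97 CPM after LPS and 15.5 ± 2.47 CPM after saline (SD, n = 4 each), a log2 change of 3.05 (SE 0.39, adjusted p 7.93e-05). The count of miRNAs whose 4 LPS libraries all lay above all 4 saline libraries was 15 of 506 (2.96%), and miR-223-5p and miR-142a-3p were 2 of these 15. All LPS libraries lay below all saline ones for 1.19% of miRNAs and for 0 members.

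Without SCG 7 d LPS replicate 2, a library of another time that enters this comparison through the shared spread, the sex term, the scaling and the filter, 2 of the 4 members rose in SCG at 24 h, against 6 of 514 miRNAs called (1.17%). miR-223-5p had a log2 change of 1.34 (SE 0.25, 95% interval 0.82 to 1.86, adjusted p 0.00507). miR-142a-3p had a log2 change of 1.09 (SE 0.26, 95% interval 0.54 to 1.63, adjusted p 0.0445). miR-223-3p and miR-142a-5p did not pass, with log2 changes of 1.28 (SE 0.35, adjusted p 0.117) and 0.76 (SE 0.24, adjusted p 0.260). The estimates moved little and the SE of miR-142a-3p fell to 0.26, against 0.83 with that library in the fit.

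A fit of the 8 SCG libraries of 24 h alone called 3 members, miR-223-3p and miR-223-5p (adjusted p 0.0123 each) and miR-142a-3p (adjusted p 0.0144), against 5 of 458 miRNAs (1.09%). DESeq2 on all SCG libraries called 1, miR-223-5p (adjusted p 0.0192), against 7 of 506 (1.38%). Over 15 alternative settings the adjusted p of miR-223-5p ran from 0.000624 to 0.429 and fell under 0.05 in 5 of them, that of miR-142a-3p ran from 0.0144 to 0.999 with 2 calls, and that of miR-223-3p ran from 0.0123 to 0.999 with 1 call. miR-142a-5p was called in none of the 15. Its log2 change, like those of the other 3 members, stayed above 0 in all of them. The share of all miRNAs called is not given here for the settings not named.

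**Figure D2:**
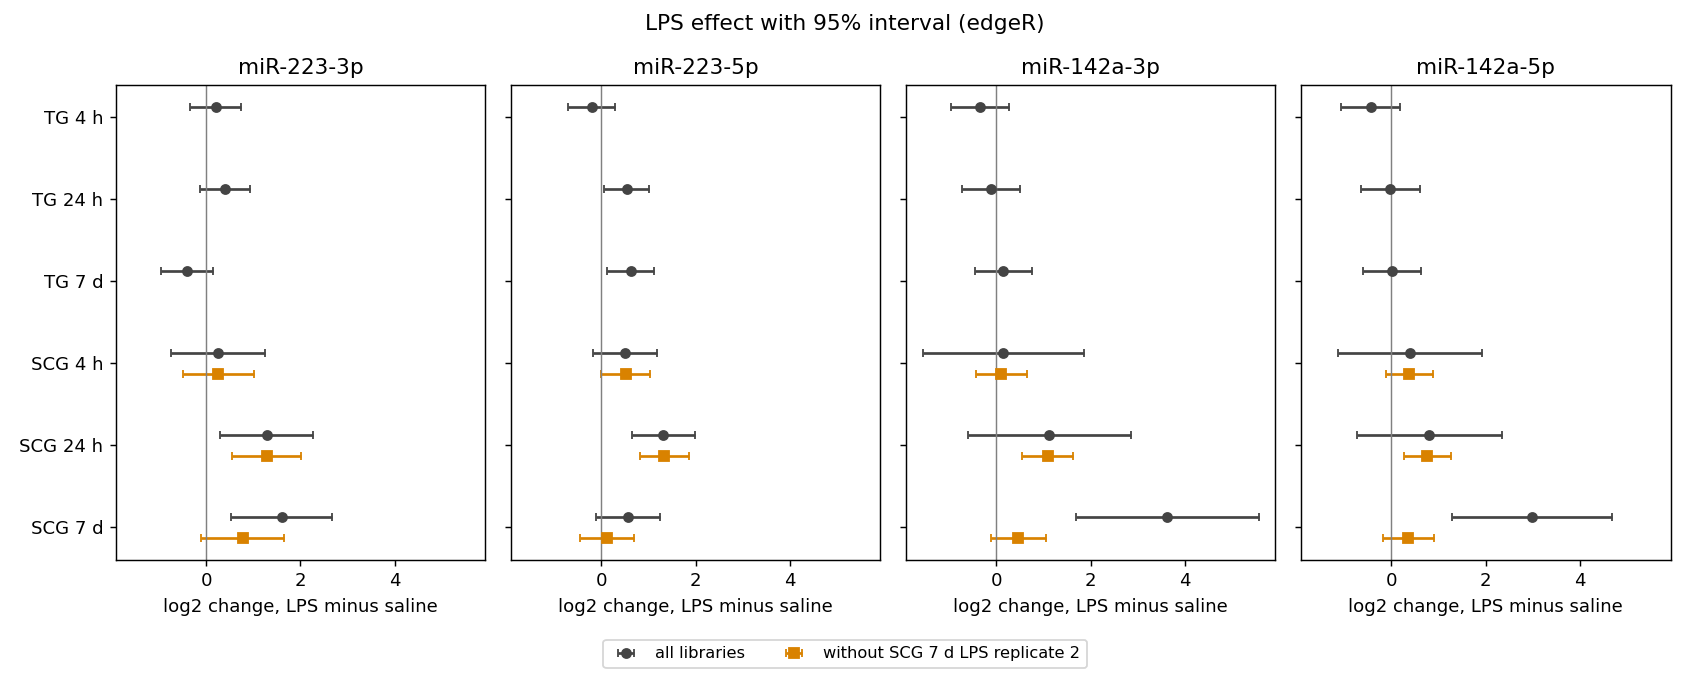
Log2 change of each member, LPS minus saline, with its 95% interval for each ganglion and time (x axis, log2 units, shared by the panels), in the fit of all libraries (dark grey circles) and without SCG 7 d LPS replicate 2 (orange squares, SCG only). At 24 h in SCG the estimates of miR-142a-3p are 1.12 and 1.09 while the interval narrows without that library, and at 7 d the estimate moves between 3.63 and 0.46.

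Markers of other cells were measured in the same libraries. The 7 red cell miRNAs, such as miR-451a and miR-144, which are made by erythroid cells and mark blood left in a tissue, had a median log2 change of 0.15 in SCG at 24 h, with 0 of 7 called, while the median of all miRNAs tested was 0.02. miR-451a itself stood at 566, 254, 509 and 405 CPM after LPS and at 216, 367, 455 and 312 CPM after saline, with overlapping groups and a log2 change of 0.39 (SE 0.48). Relative to miR-451a in the same library, miR-223-5p had a log2 ratio between -3.76 and -2.63 after LPS and between -4.59 and -3.80 after saline. These ranges were only just apart, at -3.76 against -3.80, and those of the other members overlapped. The share of all miRNAs whose ratio to miR-451a lay apart in this way was not computed. Ratios of the 3p arms to miR-451a were planned, and those of the 5p arms were added. The ratio ranged from -5.54 to -3.93 after LPS and from -5.97 to -4.87 after saline for miR-223-3p, and from -2.76 to -1.74 after LPS and from -3.08 to -2.24 after saline for miR-142a-3p. For miR-142a-5p it averaged -0.71 ± 0.68 after LPS and -0.97 ± 0.34 after saline (SD, n = 4 each), also with overlap.

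Other leukocyte miRNAs gave a mixed picture in SCG at 24 h. Their list of 8 had 6 tested, with a median log2 change of 0.48, and 1 was called, miR-155-5p. miR-150-5p, which is abundant in mature lymphocytes, stood at 219, 118, 140.2 and 196 CPM after LPS and at 119, 132, 115 and 108 CPM after saline. Its log2 change was 0.56 (SE 0.57), with LPS replicate 2 inside the saline range. The summed list ran from 412 to 628 CPM after LPS and from 287 to 356 CPM after saline. Without miR-155-5p, which is also on the list of LPS-induced miRNAs, the sums of the other 7 were 320 to 495 CPM after LPS and 268 to 340.1 CPM after saline, and the ranges overlapped. Their part in the values of the members was not tested. Muscle miRNAs summed to 189 to 1301 CPM after LPS and to 338 to 2169 CPM after saline. Epithelial ones summed to 319 to 677 CPM after LPS and 278 to 709.9 CPM after saline, with 0 called in either list. The sensory neuron miRNAs summed to 221 to 933 CPM after LPS and to 783 to 21076 CPM after saline, where replicate 1 was the highest. Their median log2 change was -2.93, with 0 of 3 called.

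The proportion of the myeloid to the pan-leukocyte miRNA in SCG at 24 h is given as a description, with no test. The log2 ratio of miR-223-5p to miR-142a-5p averaged -2.52 ± 0.24 after LPS (range -2.67 to -2.16) and -3.17 ± 0.33 after saline (range -3.56 to -2.84; SD, n = 4 each). Those ranges did not overlap, and miR-223-5p was the relatively higher one after LPS. This ratio of the 5p arms was not among the ratios planned, and that of the 3p arms was. How often such ratios of other miRNAs lay apart was not computed. For the 3p arms the log2 ratio was -2.48 ± 0.29 after LPS and -2.71 ± 0.43 after saline, with overlapping ranges.

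In SCG at 4 h the differences were smaller and none passed the test. miR-223-5p stood at 23.1, 18.1, 22.01 and 26.7 CPM after LPS and at 11.7, 15.1, 18.9 and 16.3 CPM after saline. In 3 of 4 LPS libraries it was above every saline library, and the log2 change was 0.50 (SE 0.32). miR-142a-5p likewise had 3 of 4 LPS libraries above the saline range, at 291, 249.7, 213 and 250.5 CPM after LPS and 243, 206, 167 and 143 CPM after saline, with a log2 change of 0.40 (SE 0.73).

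The 3p arms in SCG at 4 h had no LPS library above the highest saline library. miR-223-3p stood at 11.8, 9.03, 6.67 and 11.6 CPM after LPS and at 12.8, 8.16, 5.28 and 5.86 CPM after saline, a log2 change of 0.25 (SE 0.48). miR-142a-3p stood at 83.6, 88.6, 57.7 and 72.9 CPM after LPS and at 105, 76.1, 46.2 and 50.5 CPM after saline, a log2 change of 0.14 (SE 0.82). In both the highest saline library was replicate 1, the one with 94360 CPM of muscle miRNAs. Without it the log2 changes were 0.58 (SE 0.53) for miR-223-3p and 0.28 (SE 0.93) for miR-142a-3p, with an adjusted p of 0.997 each. Of the 4 members, 0 were called, against 0 of 506 miRNAs (0%), and 0 had an unadjusted p under 0.05, against 13 of 506. DESeq2 also called 0 members. Without SCG 4 h saline replicates 1 and 2 the log2 change was 1.03 (SE 0.63) for miR-223-3p and 0.34 (SE 1.11) for miR-142a-3p, with an adjusted p of 0.993 each. This setting was chosen after seeing the data. Saline replicate 2 held 20099 CPM of muscle miRNAs. LPS replicate 1, which stayed in the fit, held 12100 CPM of them and was the highest LPS library for miR-223-3p. Over 16 alternatives the adjusted p ran from 0.845 to 1 for miR-223-3p and from 0.867 to 1 for miR-142a-3p. Without SCG 7 d LPS replicate 2, 0 of 4 members were called against 3 of 514 miRNAs (0.584%), and miR-223-5p had a log2 change of 0.52 (SE 0.25, adjusted p 0.763).

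In SCG at 7 d, 1 library set the size of the miR-142a change. miR-142a-3p stood at 92.1, 3289.7, 87.7 and 73.9 CPM after LPS and at 72.4, 71.7, 50.3 and 58.9 CPM after saline. miR-142a-5p stood at 241, 5116, 211 and 189.6 CPM after LPS and at 183, 173, 152 and 171 CPM after saline. For both arms every LPS library was above every saline library, but 3 of the 4 were above by little and replicate 2 by far. LPS libraries all above saline ones were found for 27 of 506 miRNAs at 7 d (5.34%), and all below for 21 (4.15%) and 0 members.

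miR-223 at 7 d in SCG showed the same library as its highest. miR-223-3p stood at 5.01, 24.1, 6.97 and 8.95 CPM after LPS and at 3.20, 2.86, 4.07 and 5.52 CPM after saline. miR-223-5p stood at 21.4, 39.4, 17.7 and 15.9 CPM after LPS and at 22.01, 15.1, 11.2 and 18.02 CPM after saline. For miR-223-3p, 3 of 4 LPS libraries were above the saline range, and for miR-223-5p only replicate 2 was.

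With all libraries, 0 of the 4 members were called in SCG at 7 d, against 3 of 506 miRNAs (0.593%). The log2 changes were 3.63 (SE 0.93, adjusted p 0.0867) for miR-142a-3p, 2.98 (SE 0.81, adjusted p 0.1097) for miR-142a-5p, 1.60 (SE 0.51, adjusted p 0.128) for miR-223-3p and 0.56 (SE 0.33, adjusted p 0.340) for miR-223-5p. The first 3 had unadjusted p-values of 0.000893, 0.00152 and 0.00555, in a comparison where 103 of 506 miRNAs had one under 0.05. DESeq2 called these 3, against 52 of 506 miRNAs (10.3%). Without replicate 2 the log2 changes were 0.46 (SE 0.28, adjusted p 0.508), 0.36 (SE 0.26, adjusted p 0.556), 0.77 (SE 0.43, adjusted p 0.503) and 0.12 (SE 0.27, adjusted p 0.862) in the same order. Of the 4 members, 0 were then called, against 3 of 514 miRNAs (0.584%). Over 14 alternatives the adjusted p of miR-142a-3p ran from 6.82e-13 to 0.719 and that of miR-142a-5p from 7.15e-10 to 0.719, with 7 calls each. That of miR-223-3p ran from 0.0283 to 0.719 with 4 calls, and that of miR-223-5p from 0.193 to 0.862 with 0 calls. Apart from DESeq2 and the fit without replicate 2, the share of all miRNAs called in these alternatives is not given here. The 3 remaining LPS libraries lay above the 4 saline ones for both arms of miR-142a, as they did for 35 of 514 miRNAs (6.81%). They stood at 84.6 ± 9.48 CPM after LPS and 63.3 ± 10.7 CPM after saline for miR-142a-3p, and at 214 ± 26.01 CPM after LPS and 169.5 ± 12.9 CPM after saline for miR-142a-5p (SD, n = 3 and 4).

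What SCG 7 d LPS replicate 2 held was a mixture of markers in which miR-142a stood out and miR-223 did not. Against the median of the other 3 libraries of its group, miR-142a-3p was 37.5-fold and miR-142a-5p 24.2-fold higher, while miR-223-3p was 3.46-fold and miR-223-5p 2.22-fold higher, and the median of 568 miRNAs was 0.807-fold. By this fold 16 and 19 of the 568 miRNAs exceeded the arms of miR-142a, and 91 and 136 exceeded those of miR-223. The log2 ratio of miR-223-3p to miR-142a-3p was -7.09 there, the lowest of the 24 SCG libraries, whose highest was -2.18.

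Other lists placed that library away from its group in several directions at once. The red cell miR-451a was at 1404 CPM, 2.50-fold the median of the other 3. Of the other leukocyte miRNAs, the lymphocyte miR-150-5p was at 1240.0 CPM, 9.33-fold, and miR-155-5p was 2.54-fold. Their other arms miR-150-3p and miR-155-3p were 54.9-fold from 147 reads and 3.57-fold from 5 reads. miR-342-3p was 1.24-fold and miR-342-5p 0.729-fold. The macrophage miR-511-3p was 0.747-fold from 2 reads, and miR-511-5p was 4.48-fold from 16 reads. The muscle miR-1a-3p was 38.7-fold higher, the epithelial miR-200c-3p 249.9-fold, and miR-92a-3p of the miR-17-92 cluster, which dividing cells make, 18.2-fold. Of the neuron list, miR-124-3p was 0.0253-fold and miR-9-5p 0.0292-fold, but miR-128-3p was 18.7-fold higher. Of the myelinating glia list, miR-338-3p was 0.0745-fold and miR-219a-2-3p 2.95-fold from 6 reads, while miR-219a-5p had 1 read.

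**Figure D3:**
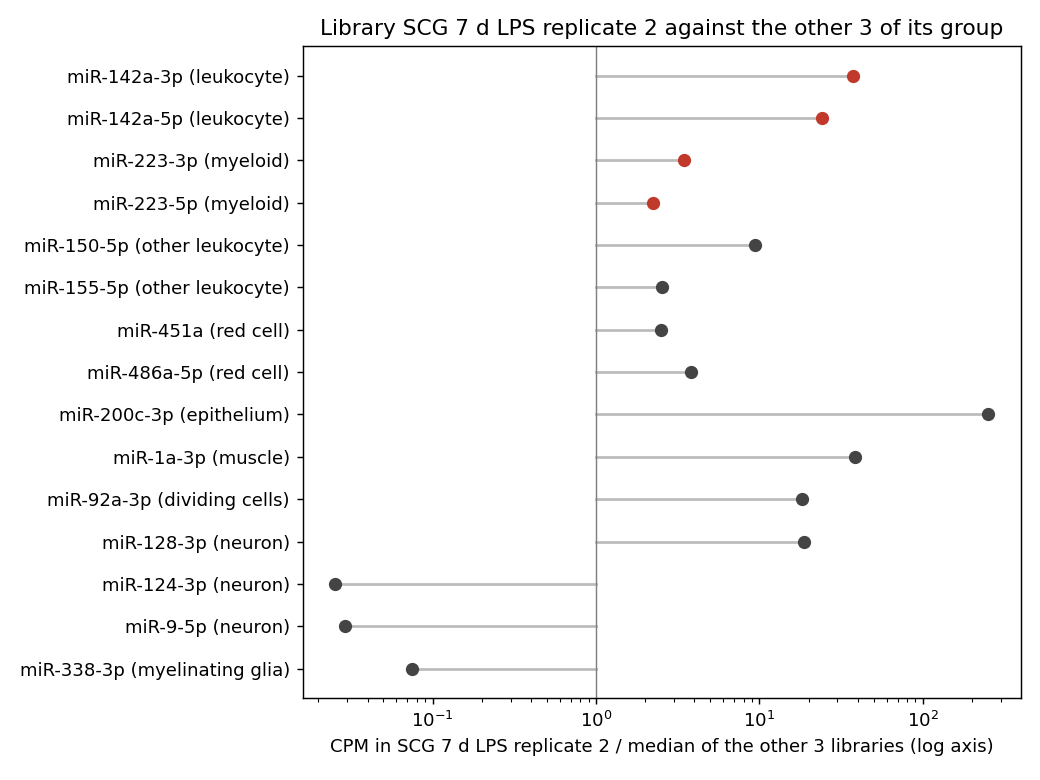
CPM in SCG 7 d LPS replicate 2 divided by the median of the other 3 libraries of its group (log axis), for the members in red and for named markers of other cells in grey, with a line at 1. The arms of miR-142a lie at 37.5 and 24.2 and those of miR-223 at 3.46 and 2.22. Of the neuronal miRNAs, miR-124-3p and miR-9-5p lie far below 1 and miR-128-3p lies at 18.7.

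In TG no comparison set the LPS libraries of a member wholly above or below the saline ones, and 0 of 4 members were called at 4 h, 24 h and 7 d, against 0 of 538 (0%), 2 of 538 (0.372%) and 33 of 538 (6.13%) miRNAs. DESeq2 also called 0 members at each time. Of 7 LPS-induced miRNAs tested in the same libraries, 0 were called at 4 h, 2 at 24 h and 4 at 7 d, all upward. Among them miR-155-5p had log2 changes of 1.93 (SE 0.36, adjusted p 0.00819) at 24 h and 1.47 (SE 0.37, adjusted p 0.0231) at 7 d. The other leukocyte list, with 6 tested, had 1 called upward and 1 downward at 7 d, with a median log2 change of -0.33. The miRNAs with 4 LPS libraries above all saline libraries were 0.929%, 1.49% and 3.16% of those tested at 4 h, 24 h and 7 d, and those with all 4 below were 1.67%, 0.558% and 3.53%.

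In TG at 24 h miR-223-5p stood at 22.5, 14.9, 16.03 and 29.9 CPM after LPS and at 14.4, 18.2, 10.2 and 14.5 CPM after saline. LPS replicates 1 and 4 were above the saline range and the other 2 inside it. The log2 change was 0.54 (SE 0.23, 95% interval 0.06 to 1.02), with an adjusted p of 0.998. miR-223-3p stood at 7.67, 8.27, 7.26 and 10.5 CPM after LPS and at 8.90, 5.77, 5.10 and 5.85 CPM after saline, a log2 change of 0.39 (SE 0.25).

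miR-142a in TG at 24 h varied more among saline mice than between treatments. miR-142a-3p stood at 39.7, 63.4, 61.6 and 76.5 CPM after LPS and at 61.6, 118, 51.0 and 37.6 CPM after saline, a log2 change of -0.12 (SE 0.29). miR-142a-5p stood at 144, 221, 149 and 199 CPM after LPS and at 182, 389, 98.0 and 112 CPM after saline, a log2 change of -0.02 (SE 0.30, 95% interval -0.65 to 0.61). Saline replicate 2, the highest TG library for both arms, also had the highest miR-451a of its group, at 3225 CPM. Without it the log2 changes were 0.27 for miR-142a-3p and 0.43 for miR-142a-5p, with 0 members called.

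In TG at 7 d miR-223-5p stood at 16.9, 17.8, 12.4 and 14.1 CPM after LPS and at 13.1, 7.71, 10.2 and 8.93 CPM after saline. In 3 of 4 LPS libraries it was above the saline range, and the log2 change was 0.62 (SE 0.24, 95% interval 0.13 to 1.11, adjusted p 0.1096). Its partner arm lay the other way: miR-223-3p stood at 4.85, 3.47, 4.05 and 6.01 CPM after LPS and at 5.91, 6.39, 8.65 and 3.19 CPM after saline, a log2 change of -0.41 (SE 0.27, adjusted p 0.394).

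miR-142a in TG at 7 d gave log2 changes of 0.14 (SE 0.29, adjusted p 0.849) for miR-142a-3p and 0.01 (SE 0.30, adjusted p 0.990) for miR-142a-5p. miR-142a-3p stood at 75.0, 63.1, 44.2 and 56.5 CPM after LPS and at 57.4, 57.9, 58.8 and 41.8 CPM after saline. miR-142a-5p ranged from 104 to 222 CPM after LPS and from 101 to 181 CPM after saline, so both arms overlapped. Without saline replicates 1, 2 and 4, the ones high in neuronal miRNAs, the log2 change of miR-223-5p was 0.61 (SE 0.38, adjusted p 0.985) and that of miR-223-3p -0.89 (SE 0.37, adjusted p 0.869). Over 15 alternatives the adjusted p of miR-223-5p ran from 0.0876 to 0.985 and that of miR-223-3p from 0.221 to 0.869.

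In TG at 4 h the point estimates of 3 members were below 0. miR-142a-5p stood at 161, 168, 100.4 and 102 CPM after LPS and at 152, 148, 162 and 227 CPM after saline, a log2 change of -0.44 (SE 0.30). The other members had log2 changes of -0.35 (SE 0.30) for miR-142a-3p, -0.21 (SE 0.24) for miR-223-5p and 0.20 (SE 0.26) for miR-223-3p. None of the 4 had an unadjusted p under 0.05, against 15 of 538 miRNAs that did. The red cell list had a median log2 change of -0.81 at this time, with 0 of 7 called, and summed to 1600.0 to 2996 CPM after LPS and to 2764 to 4319 CPM after saline. Its part in the miR-142a values was not tested.

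In TG the level of miR-142a followed that of the red cell miRNAs from library to library, and that of miR-223 did so less. Over the 24 TG libraries miR-142a-5p had a Spearman rho of 0.88 and a Pearson r of 0.91 with miR-451a on the log2 scale, and r was 0.88 without the 2 libraries farthest from the median of miR-451a. Within the 12 LPS libraries rho was 0.90, and within the 12 saline libraries it was 0.86. miR-142a-3p had a rho of 0.79 with miR-451a. For miR-223-3p rho was 0.03 and for miR-223-5p 0.36. In TG miR-223-3p had only 10 to 42 reads per library, and the arms of miR-223 had a rho of 0.23 with each other. The part of counting noise in these low values was not tested.

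In SCG the same correlations were weaker for miR-142a, at a rho of 0.50 for miR-142a-3p and 0.49 for miR-142a-5p, or 0.43 and 0.42 without SCG 7 d LPS replicate 2. For miR-223-3p and miR-223-5p they were 0.13 and 0.32. These are descriptions over libraries that share their treatment groups and scaling, so no p is given. TG libraries held more miR-451a, and the log2 ratio of miR-142a-5p to miR-451a was -2.39 ± 0.51 in TG and -1.001 ± 0.85 in SCG (SD, n = 24 each), or -1.13 ± 0.60 in SCG without SCG 7 d LPS replicate 2.

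**Figure D4:**
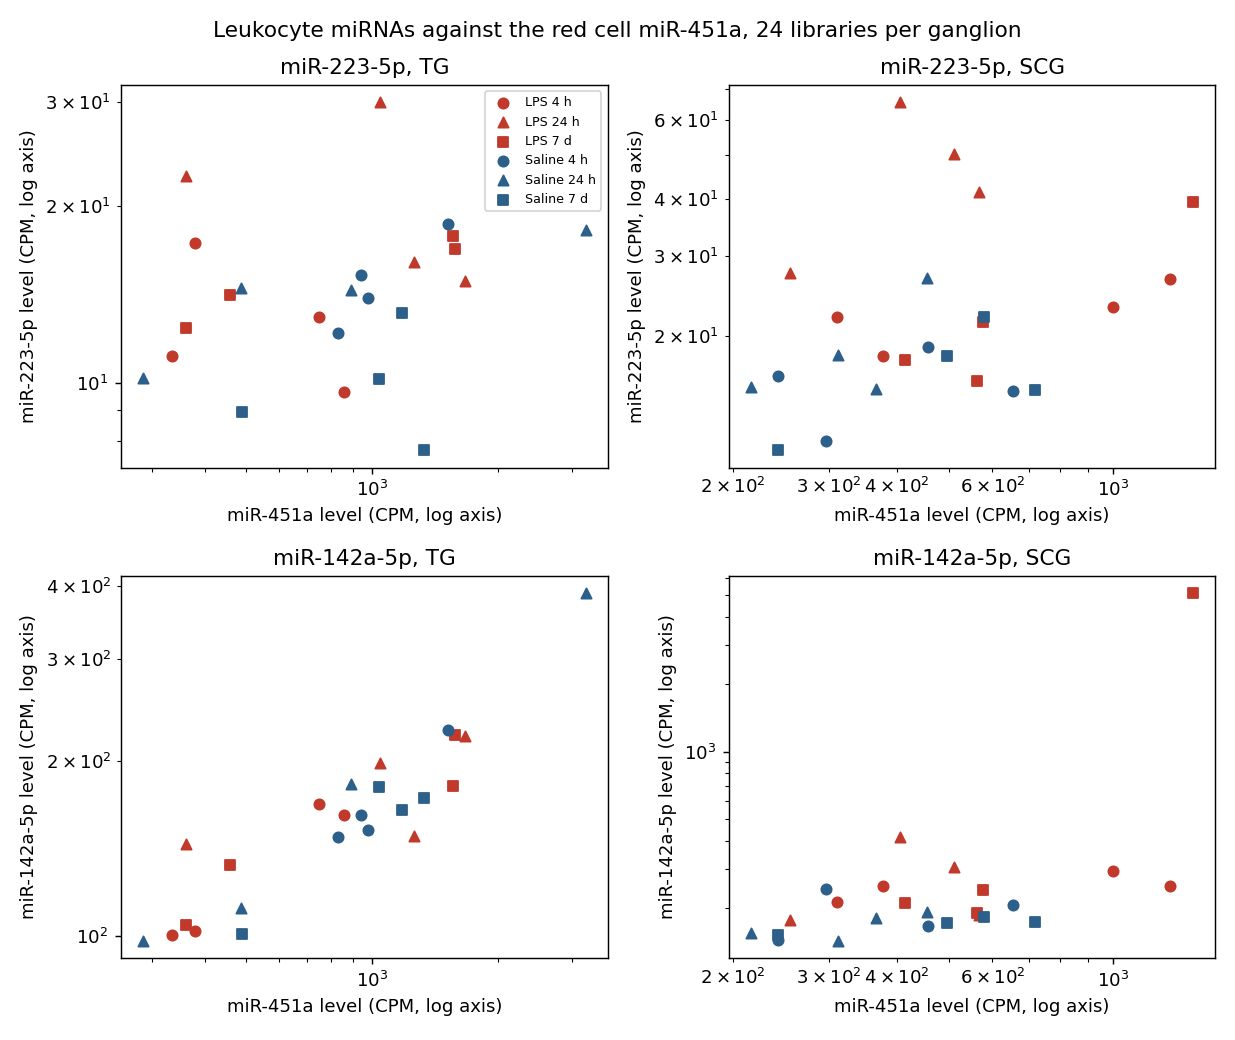
CPM of miR-223-5p (top) and miR-142a-5p (bottom) against CPM of the red cell miR-451a (both axes log) in the 24 TG and 24 SCG libraries, with LPS in red, saline in blue and the times as circles, triangles and squares. In TG miR-142a-5p runs along with miR-451a (rho 0.88), while the SCG 24 h LPS triangles of miR-223-5p sit above libraries with the same miR-451a.

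The miRNAs whose pattern over libraries was most like a member's differed by ganglion and by member. In TG miR-142a-5p was most like miR-451a, miR-144-5p and miR-144-3p (rho 0.88, 0.87 and 0.87), which come from 1 red cell locus, and miR-142a-3p was most like miR-486b-5p, miR-486a-5p and miR-144-3p (rho 0.83, 0.83 and 0.80). miR-486a and miR-486b share their mature 5p sequence, so those 2 are not independent. TG miR-223-3p was most like miR-574-3p, miR-125b-1-3p and miR-378c (rho 0.71, 0.69 and 0.67), and TG miR-223-5p was most like miR-25-3p, miR-28a-5p and miR-423-3p (rho 0.66, 0.61 and 0.61).

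In SCG the nearest patterns to miR-142a-3p were miR-222-3p, miR-221-3p and miR-21a-5p (rho 0.84, 0.80 and 0.73), and those to miR-142a-5p were miR-221-3p, miR-222-3p and miR-199b-3p (rho 0.88, 0.83 and 0.80). SCG miR-223-3p was most like miR-20a-5p, miR-221-3p and miR-21a-5p (rho 0.75, 0.74 and 0.68). SCG miR-223-5p was most like miR-511-5p, miR-18a-3p and miR-21a-5p (rho 0.68, 0.62 and 0.61), of which miR-511 is encoded in the macrophage mannose receptor gene. Within the 12 saline SCG libraries rho with miR-21a-5p was 0.34 for miR-223-3p, -0.28 for miR-223-5p and 0.27 for miR-142a-3p. Within the 12 LPS ones it was 0.80, 0.64 and 0.52. With miR-221-3p it was 0.64 after saline and 0.61 after LPS for miR-223-3p. For miR-142a-3p these were 0.38 and 0.69, and for miR-142a-5p 0.61 and 0.85. The arms of miR-142a had a rho of 0.85 with each other in both ganglia, and those of miR-223 0.23 in TG and 0.58 in SCG. Leaving out SCG 7 d LPS replicate 2, the SCG values between arms were 0.83 for miR-142a and 0.53 for miR-223. The nearest SCG patterns were then at 0.82, 0.78 and 0.69 for miR-142a-3p, at 0.87, 0.81 and 0.77 for miR-142a-5p, at 0.73, 0.71 and 0.64 for miR-223-3p and at 0.65, 0.58 and 0.56 for miR-223-5p, in the order named. Each rho is over 24 libraries of 1 ganglion, and among the members the lowest counts, those of miR-223-3p, add the most counting noise. The partner miR-511-5p was lower still. Its SCG median was 2.21 CPM without SCG 7 d LPS replicate 2, against 8.16 CPM for miR-223-3p, so its rho also carries counting noise.

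Saline levels of the members were close between the ganglia, in a comparison where most miRNAs differed. miR-223-5p was lower in TG than in SCG, by a log2 change of -0.46 (SE 0.15, 95% interval -0.77 to -0.15, adjusted p 0.00959), so 1 of 4 members was called, against 333 of 471 miRNAs (70.7%). For miR-223-3p, miR-142a-3p and miR-142a-5p the log2 changes were -0.11 (SE 0.20), -0.09 (SE 0.17) and -0.09 (SE 0.16), with 95% intervals that reached from -0.53 to 0.31 at the widest. TG and SCG libraries could come from the same mouse, which the labels do not record, so the fit treated them as separate.

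The LPS effect was compared between the ganglia directly. At 24 h the effect in TG minus that in SCG was -0.76 (SE 0.39) for miR-223-5p, -0.87 (SE 0.52) for miR-223-3p, -1.11 (SE 0.87) for miR-142a-3p and -0.80 (SE 0.78) for miR-142a-5p on the log2 scale. None of the 4 was called, nor was any of 577 miRNAs (0%), with adjusted p-values of 0.999. Without SCG 7 d LPS replicate 2 the difference of miR-142a-3p was -1.14 (SE 0.39, 95% interval -1.93 to -0.36, adjusted p 0.280). Those of miR-142a-5p, miR-223-5p and miR-223-3p were -0.81 (SE 0.40, adjusted p 0.925), -0.76 (SE 0.34, adjusted p 0.864) and -0.87 (SE 0.43, adjusted p 0.927), and 0 of 590 miRNAs were called (0%). So all 4 estimates were lower in TG, and a difference between the ganglia at 24 h did not pass the test.

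At 7 d the difference was called for miR-142a-3p, at -3.52 (SE 0.90, adjusted p 0.0374), 1 of 4 members against 8 of 577 miRNAs (1.39%), with -2.87 (SE 0.80) for miR-142a-5p and -1.94 (SE 0.56) for miR-223-3p just short of it at an adjusted p of 0.0527 each. It rested on SCG 7 d LPS replicate 2. Without that library the difference of miR-142a-3p was -0.32 (SE 0.40, adjusted p 0.750) and 0 of 4 members were called, against 17 of 590 miRNAs (2.88%). At 4 h the differences were -0.12 (SE 0.54) for miR-223-3p, -0.75 (SE 0.39) for miR-223-5p, -0.58 (SE 0.88) for miR-142a-3p and -0.89 (SE 0.78) for miR-142a-5p, and 0 of 4 members were called, against 0 of 577 miRNAs (0%). When SCG 7 d LPS replicate 2 was left out they were -0.09 (SE 0.44), -0.73 (SE 0.35), -0.49 (SE 0.39) and -0.82 (SE 0.40) in the same order, again with 0 of 4 called, against 0 of 590 miRNAs (0%).

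Ordered by mean level over the 12 groups, both arms of miR-223 were highest in SCG 24 h LPS, at 19.9 ± 10.01 CPM for miR-223-3p and 46.2 ± 15.9 CPM for miR-223-5p (SD, n = 4). Next came SCG 7 d LPS and SCG 4 h LPS for both arms, at 11.3 ± 8.71 and 9.77 ± 2.41 CPM for miR-223-3p and at 23.6 ± 10.8 and 22.5 ± 3.54 CPM for miR-223-5p, and then TG 24 h LPS. Without its replicate 2, SCG 7 d LPS stood at 6.98 ± 1.97 and 18.3 ± 2.81 CPM (n = 3). The lowest group was SCG 7 d saline for miR-223-3p (3.91 ± 1.19 CPM) and TG 7 d saline for miR-223-5p (9.99 ± 2.33 CPM). For miR-142a, SCG 24 h LPS came second at 105 ± 36.6 CPM (miR-142a-3p) and 270.1 ± 112 CPM (miR-142a-5p), behind SCG 7 d LPS with its replicate 2, and TG 4 h LPS was the lowest at 45.99 ± 8.77 and 133 ± 36.9 CPM. In all 11 neighbouring pairs of each order the means ± SD overlapped. Neighbours in an order by mean lie close by construction, so this overlap does not bear on LPS against saline.

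Time and sex gave no call among the members. The LPS effect did not pass a test of difference between the 3 times for any member in TG (8 of 538 miRNAs called, 1.49%) or in SCG (0 of 506, 0%), where miR-142a-3p had the smallest p of the 4 (0.0289, adjusted p 0.885). Without SCG 7 d LPS replicate 2 the smallest was that of miR-223-5p (0.0101, adjusted p 0.920). Saline libraries did not pass a test of difference between times for any member in TG (41 of 538 miRNAs called, 7.62%) or in SCG (0 of 506, 0%).

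In TG the median of miR-142a-5p was 122 CPM in males and 171 CPM in females (n = 12 each). Its log2 difference, male minus female, was -0.49 (SE 0.18, adjusted p 0.984), and 0 of 4 members were called, against 0 of 538 miRNAs (0%). In SCG the difference of miR-223-3p was 0.16 (SE 0.29) with all libraries and 0.42 (SE 0.22, adjusted p 0.293) without SCG 7 d LPS replicate 2, which is female. There 0 of 4 members were called, against 5 of 506 miRNAs (0.988%), or 32 of 514 (6.23%) without that library. The LPS effect in males minus that in females was called for 0 of 4 members and 0 miRNAs (0%) in either ganglion.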

How the data were processed

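Small RNA of 48 ganglion libraries was analysed from 1 table of counts per mature miRNA that the authors deposited without normalisation. The submitters' processing notes name FastQC 0.11.9 and build GRCm39, with aligner and counter not given in the sources used here. Libraries were grouped by ganglion, time and treatment from the labels. For LPS replicate 2 at 24 h in each ganglion the count column reads PS in place of LPS, as does the TG sample's title. These were matched by library number, and the treatment field gives LPS. Names and sequences came from RefSeq tables of GRCm38.p6, and 1679 of 1978 miRNAs matched. edgeR 4.0.16 (R 4.3.3) was run per ganglion on 24 libraries, with 6 groups and sex, a count minimum of 10 (filterByExpr), TMM scaling and robust quasi-likelihood tests, with Benjamini-Hochberg adjustment at 0.05 within each comparison. TG was set against SCG in fits of both ganglia. DESeq2 1.42.0, other scaling, filters, models and left-out libraries were alternatives, and the code was tested on simulated data. The members, the marker lists and the rule for named miRNAs (members, listed markers, and the 3 miRNAs nearest each member by rho) were chosen with earlier results of these data known. tRNA fragment tables were not used.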

Additional observations from a re-analysis of the deposited data

Results flagged for a closer look

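Of 48 sets of 4 libraries (each member in each group), 3 had a highest or lowest library whose gap to the next exceeded Dixon's 95% limit, where chance gives about 1 in 20. miR-142a-3p stood at 3289.7 CPM in SCG 7 d LPS replicate 2, with 92.1 CPM as the next value of its group. miR-142a-5p stood at 5116.1 CPM in the same library, with 241 CPM as the next. miR-142a-3p stood at 41.8 CPM in TG 7 d saline replicate 4, below the 57.4 CPM that came next. The LPS effect on miR-142a-3p at 7 d differed between the ganglia, at -3.52 for TG minus SCG on the log2 scale by an interaction test, and the difference was -0.32 (adjusted p 0.750) without SCG 7 d LPS replicate 2.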

How the results depend on the processing

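No paired analysis was possible because the labels give no replicate numbers shared between groups and do not say which TG and SCG libraries share a mouse. Counts of members called stayed as they were in 92 alternatives and moved in 14. In SCG at 24 h, where 0 were called, the count was 1 with DESeq2 (7 of 506 miRNAs, 1.38%) and 3 with the 8 libraries of that time (5 of 458, 1.09%). It was 1 with all 12 saline libraries as a group, and 0 to 2 when single libraries were left out. In SCG at 7 d, where 0 were called, it was 3 without a filter and 3 with DESeq2 (52 of 506, 10.3%). There it was 2 without the sex term, 2 with pooled saline, and 0 to 3 when single libraries were left out. Without replicate 2 of LPS it was 0 (3 of 514, 0.584%). The ganglion difference at 7 d had 1 called (8 of 577, 1.39%), 2 with size factors and 0 without SCG 7 d LPS replicate 2 (17 of 590, 2.88%). For the other settings the share over all miRNAs is not given here. The cause was not tested.

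Uncalled log2 changes turned sign in 17 alternatives. In TG at 24 h miR-142a-5p (-0.02) was 0.041 with the 8 libraries, 0.071 with pooled saline, and -0.217 to 0.432 when single libraries were left out (above 0 without LPS replicate 1 or saline replicate 2), and miR-142a-3p (-0.12) was 0.034 with pooled saline and -0.325 to 0.267 (above 0 without the same libraries). In TG at 7 d miR-142a-5p (0.01) was -0.135 with pooled saline, -0.086 to 0.233 when single libraries were left out (below 0 without LPS replicate 1, saline replicate 1 or saline replicate 4), and -0.482 without saline replicates 1, 2 and 4, where miR-142a-3p was -0.044. The last setting was chosen after seeing the data. Without SCG 7 d LPS replicate 2 the LPS effect in males minus females in SCG was 0.467, 0.1299, 0.539 and 0.487 for miR-223-3p, miR-223-5p, miR-142a-3p and miR-142a-5p, against -0.12, -0.15, -0.72 and -0.61 with it. Of the members, depth limits miR-223-3p most, with 8 to 100 reads per library.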
